A study of Populus ussuriensis with 12 samples.

Results

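Runs of neighbouring genes whose messenger RNA levels differed in the same direction between excess Zn and control medium were read in roots of *Populus ussuriensis*, a poplar. A run was 3 or more consecutive genes along a chromosome, each with a ratio of Zn to control of 1.5 or more in wild-type plants (WT) and in plants overexpressing PuHSFA4a (OE), or each with a ratio of 1/1.5 or less in both. The ratio was that of the group means after adding 0.5 to each mean, in CPM, the count divided by the library size that edgeR's TMM factor adjusts. Genes of chromosomes 1 to 19 with a mean of at least 1 CPM over all libraries were put in order of their start, which gave 23247 ordered genes of 39602 in the files. The rule found 29 runs with 99 genes. Run genes with a ratio of 4-fold or more in both genotypes, 16 in all, were left out, and the other 83 genes are the members described here, 60 in 21 rising runs and 23 in 8 falling runs. The members were selected on their Zn to control ratios in these libraries, so those ratios are a description and carry no test.

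The groups were WT control, WT Zn, OE control and OE Zn, with 3 root libraries each, 12 in all. All came from in vitro plants aged 21 days at harvest. The labels give 1 week on agar medium and then 2 weeks with 1.2 mM zinc sulfate. The labels of the control samples carry this text as well, and it was taken to describe the Zn groups alone. Every group shares the species, the organ and the pre-culture, and the groups differ by the transgene and the Zn label. The labels give neither the promoter of the transgene nor the number of OE lines, and they do not tell whether replicate libraries are separate plants. The p-values below therefore cover the spread among libraries, which may be technical.

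Zn is a micronutrient that enzymes and DNA-binding proteins need, and in excess it is toxic to roots. HSFA4a belongs to the class A heat shock factors, transcription factors of the plant stress response. Neighbouring plant genes can share expression because they arose as tandem copies, because they lie in the same stretch of chromatin, because transcription or read assignment runs from one into the next, or by coincidence of gene order. The deposited files pair no ID with a gene name or product, and the genes are called by their IDs without a function. Whether the genes of a run are copies of each other, which could also share reads, was not tested.

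Library totals ran from 15594001 to 21206585 counts, and 3 counts, taken as the floor for counting error only, equal 0.1415 to 0.1924 CPM. Potri.011G071700.v3.0, which general knowledge of the poplar annotation gives as HSFA4a, stood at 331, 347 and 339 CPM in OE control and at 267, 238 and 266 CPM in OE Zn. It stood at 33.2, 32.5 and 33.0 CPM in WT Zn. In the libraries labelled WT control 1, 2 and 3 it stood at 129, 165 and 37.1 CPM. Libraries 1 and 2 thus lay above the other WT libraries and under the OE libraries, which goes partly against their label. Whether libraries 1 and 2 are mislabelled was not tested. Every WT ratio below uses these libraries, and so does the contrast of OE with WT on control medium. Replicates of each group differed by more than sampling noise. The chi-square of the counts per degree of freedom, larger for replicates less alike, was largest between WT Zn 1 and WT Zn 3 (31.5). It was 15.8 between WT Zn 2 and WT Zn 3 and 8.25 between WT Zn 1 and WT Zn 2. The pairs other than WT Zn 1 and WT Zn 3 lay between 5.52 and 20.2, the latter for OE Zn 2 and OE Zn 3.

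Of the 23247 ordered genes, 1231 passed the ratio limit upwards in both genotypes (5.3%) and 1113 downwards (4.79%). Most stood alone in the gene order. Of the stretches of such genes, 991 rising and 948 falling ones held a single gene, and 86 rising and 67 falling ones held a pair. Run genes made up 5.52% of the rising and 2.79% of the falling genes past the limit. Of the rising runs, 17 had 3 genes, 3 had 4 genes and 1 had 5 genes. Of the falling runs, 3 had 3 genes, 3 had 4 genes and 2 had 5 genes. Runs lay on 18 of the 19 chromosomes, with 4 on chromosome 6 and 3 each on chromosomes 4 and 10, and none on chromosome 14.

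Ratios differed widely among the members. Each run gene that reached 4-fold in OE also did so in WT and was left out. The rule thus cut the OE ranges of members off at 4-fold, but not the WT ranges. In WT the rising members had ratios of Zn to control from 1.54 to 11.9 with a median of 2.39, and in OE from 1.502 to 3.94 with a median of 1.95. The 1101 rising genes outside runs that were also under 4-fold had medians of 2.12 in WT and 1.87 in OE. The falling members had ratios from 0.156 to 0.659 with a median of 0.436 in WT, and from 0.256 to 0.666 with a median of 0.544 in OE. The 1046 comparable falling genes outside runs had medians of 0.475 in WT and 0.535 in OE. The WT ratio lay farther from 1 than the OE ratio in 50 of 60 rising members (83.3%) and in 20 of 23 falling members (87.0%). The same held for 751 (68.2%) of the rising and 738 (70.6%) of the falling genes outside runs. Whether the Zn response of the members differed between genotypes was not tested.

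**Figure D1:**
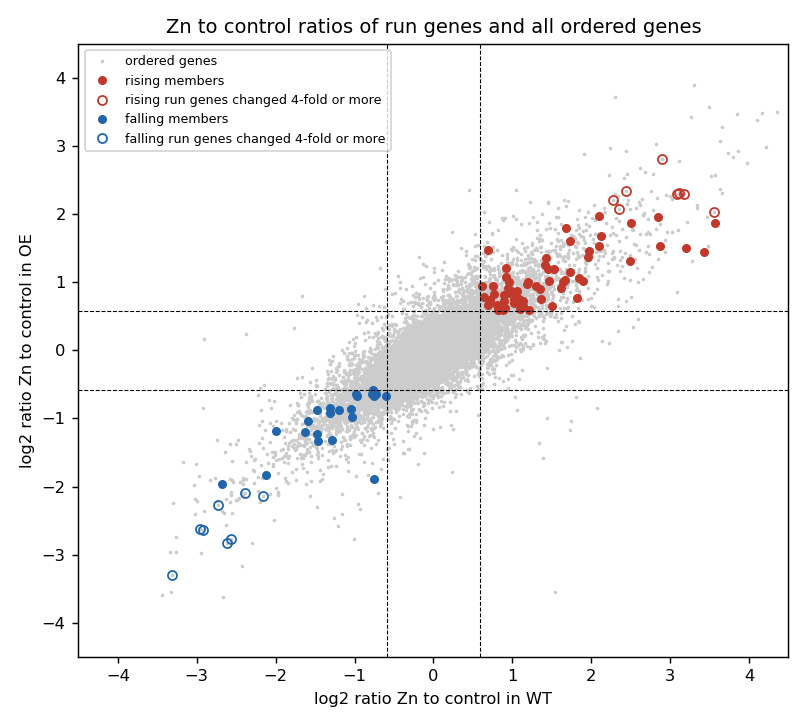
Each point is 1 gene, with the log2 ratio of Zn to control in WT on the x axis and in OE on the y axis, on means of CPM plus 0.5. Red and blue filled points are the 60 rising and 23 falling members, open points the 16 run genes left out for a change of 4-fold or more, and grey points all ordered genes, of which 10 lie beyond the axes. Dashed lines mark the limit of 1.5 either way, and the members fill 2 corners by construction.

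Single libraries showed the direction of nearly all members. Relative to the control mean of their own genotype, the rising members had median log2 differences of 1.23, 1.30 and 1.34 in WT Zn 1, 2 and 3, and of 0.96, 1.05 and 0.91 in OE Zn 1, 2 and 3. The falling members had medians of -1.02, -1.15 and -1.14 in the WT Zn libraries and of -0.82, -1.09 and -0.83 in the OE Zn libraries. In the control libraries the medians stayed between -0.17 and 0.19. All 3 Zn libraries lay above all 3 control libraries in both genotypes for 51 of 60 rising members, where 12.6% of all ordered genes did so. All 3 lay below in both genotypes for 19 of 23 falling members, against 12.4% of all ordered genes. The rule used the same libraries, so these counts say nothing beyond the selection.

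**Figure D2:**
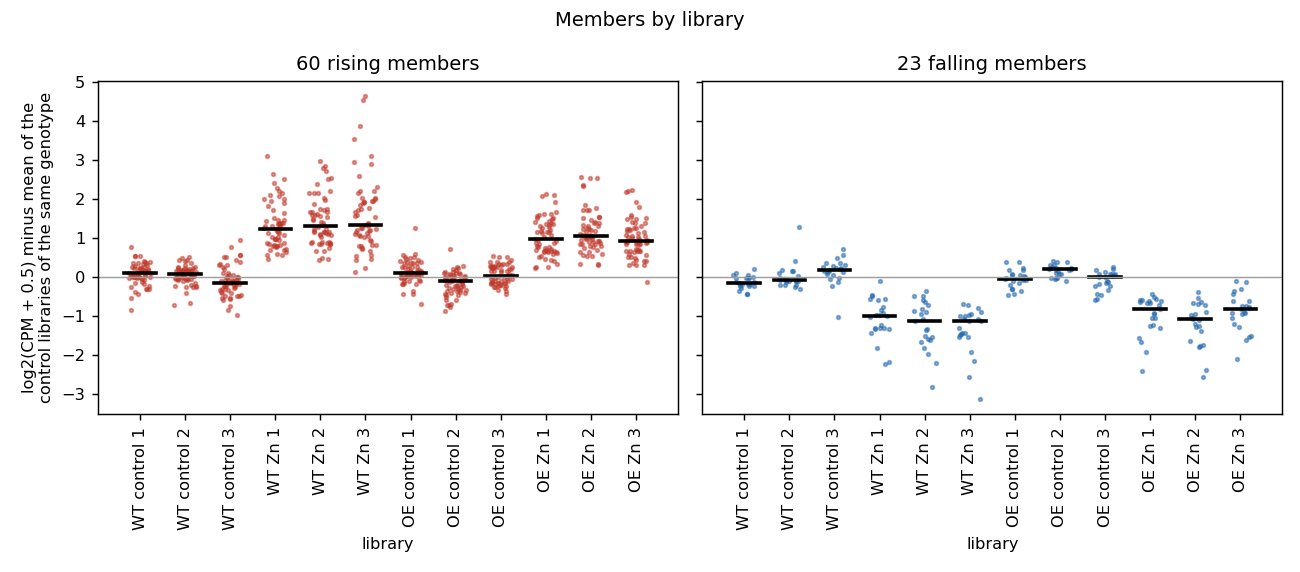
Each point is 1 member in 1 library, with the log2 of CPM plus 0.5 minus the mean of the control libraries of the same genotype on the y axis and the 12 libraries on the x axis. Black bars are medians over the 60 rising members on the left and the 23 falling members on the right. The rising medians lie between 1.23 and 1.34 in the WT Zn libraries and between 0.91 and 1.05 in the OE Zn libraries.

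The longest rising run lay on chromosome 10, from 2260981 to 2781270, and held 5 genes over 520 kb, all of them members. Its ratios were modest and even, from 1.74 to 2.32 in WT and from 1.52 to 1.76 in OE. The fourth gene, Potri.010G018600.v3.0, had the highest CPM level of the run and is annotated over 383 kb of the minus strand, so that the fifth, Potri.010G018100.v3.0, lies inside it. In Potri.010G018600.v3.0 the libraries labelled WT control stood at 26.3, 23.8 and 14.6 CPM and WT Zn at 31.0, 39.2 and 43.7 CPM. In OE control it stood at 24.3, 19.9 and 27.3 CPM and in OE Zn at 31.4, 45.7 and 37.9 CPM. The Zn libraries were the higher ones in both genotypes without overlap, although the lowest of them was close to the highest control library. The other 4 genes had group means between 1.05 and 8.00 CPM. Of these 4, Potri.010G017100.v3.0, Potri.010G017400.v3.0 and Potri.010G017800.v3.0 lie on the plus strand and each overlaps Potri.010G017000.v3.0. The strand setting of the counting is not given in the sources used here, so reads of overlapping genes may not be told apart. In Potri.010G017800.v3.0 the OE libraries overlapped, with 4.69, 3.34 and 6.97 CPM on control and 5.77, 9.93 and 7.83 CPM on Zn. All 4 adjacent pairs of this run varied together among replicates, with r from 0.64 to 0.86 (12 libraries, deviations from the group means).

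The rising run with the highest CPM level also lay on chromosome 10, from 15918247 to 15959537, with 3 genes on the plus strand. Potri.010G150500.v3.0, annotated over 41.3 kb, contains Potri.010G150700.v3.0 and Potri.010G150800.v3.0. Potri.010G150500.v3.0 stood at 63.2, 55.3 and 33.1 CPM in WT control and at 306, 385 and 717 CPM in WT Zn. In OE control it stood at 56.3, 73.2 and 95.9 CPM and in OE Zn at 169, 374 and 96.8 CPM. The WT groups lay far apart, while OE Zn 3 stood barely above the highest OE control library. The ratio was 9.20 in WT and 2.83 in OE. Potri.010G150800.v3.0 stood at 90.3, 99.8 and 60.6 CPM in WT control and at 351, 379 and 696 CPM in WT Zn. Its levels were 67.0, 68.3 and 95.2 CPM in OE control and 223, 442 and 179 CPM in OE Zn. WT Zn 3 was again the highest WT library, WT control 3 the lowest and OE Zn 2 the highest OE library. Its ratios were 5.66 in WT and 3.64 in OE. The gene between them, Potri.010G150700.v3.0, changed 8.49-fold in WT and 4.90-fold in OE and is therefore no member. It stood at 224, 217 and 95.1 CPM in WT control and at 1067, 1328 and 2171 CPM in WT Zn, again with WT control 3 lowest and WT Zn 3 highest. Residual levels of adjacent genes had r of 0.92 and 0.95. Reads of Potri.010G150500.v3.0 and of the genes inside it may not be told apart. The next gene, Potri.010G150900.v3.0, had a ratio of 2.18 in WT and of 1.46 in OE and so missed the limit in OE.

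On chromosome 4, from 24104232 to 24148929, 3 neighbours formed a run of members alone, with no overlap between their annotated spans. Potri.004G235500.v3.0 stood at 80.4, 64.1 and 32.8 CPM in WT control and at 220, 227 and 254 CPM in WT Zn. It stood at 96.6, 72.0 and 78.6 CPM in OE control and at 198, 238 and 248 CPM in OE Zn. The Zn libraries of both genotypes formed 1 narrow band that no control library reached. Its ratios were 3.93 in WT and 2.76 in OE. Potri.004G235600.v3.0, 3604 bases further on, stood at 20.4, 19.7 and 20.3 CPM in WT control and at 49.7, 45.4 and 34.9 CPM in WT Zn. In OE it stood at 31.1, 31.6 and 24.4 CPM on control and at 46.5, 41.6 and 60.1 CPM on Zn, without overlap. The first gene of the run, Potri.004G235400.v3.0, had ratios of 1.71 in WT and 1.78 in OE, and its OE groups overlapped. The residual levels of Potri.004G235500.v3.0 and Potri.004G235600.v3.0 did not move together (r = -0.02), and those of Potri.004G235400.v3.0 and Potri.004G235500.v3.0 had r of 0.40.

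A second rising run of chromosome 4, from 19827673 to 19866353, held 4 genes, 2 of them members. Potri.004G182000.v3.0 stood at 46.2, 32.1 and 13.3 CPM in WT control and at 132, 180 and 212 CPM in WT Zn. Its level in OE was 88.9, 43.9 and 63.6 CPM on control and 163, 182 and 148 CPM on Zn. All Zn libraries were above all control libraries, and each OE control library lay above WT control 2 and 3. Its ratio was 5.64 in WT and 2.50 in OE. Potri.004G181700.v3.0 had the ratios 4.27 and 3.94, and the genes left out, Potri.004G181900.v3.0 and Potri.004G182100.v3.0, had 9.03 and 7.42 in WT and 4.93 and 7.03 in OE. The pair Potri.004G181900.v3.0 and Potri.004G182000.v3.0 lies on opposite strands with 203 bases between the genes and had a residual r of 0.82, while Potri.004G182000.v3.0 and Potri.004G182100.v3.0 had an r of -0.61. The gene just before this run had log2 ratios of 1.62 in WT and 0.12 in OE, and the one before that passed the limit in both with 2.17 and 2.09, so that a single gene in OE set the start of the run.

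On chromosome 5, from 22673386 to 22727906, all 4 genes of a run were members, on alternating strands. Potri.005G213500.v3.0 stood at 15.4, 15.3 and 11.7 CPM in WT control and at 36.9, 43.4 and 42.5 CPM in WT Zn. It stood at 25.3, 29.7 and 28.0 CPM in OE control and at 32.2, 48.3 and 51.3 CPM in OE Zn. OE control lay between the WT groups without overlapping either. The last gene, Potri.005G214200.v3.0, had the largest ratio of any member, 11.9 in WT, at low levels. It stood at 0.193, 0 and 0.116 CPM in WT control, at or near the floor, and at 1.99, 3.77 and 14.3 CPM in WT Zn. WT Zn 3 carried much of that mean. The OE libraries gave 0.607, 0.0548 and 0.188 CPM on control and 1.796, 3.93 and 1.34 CPM on Zn, a ratio of 3.65. Of the genes between, Potri.005G213800.v3.0 had ratios of 2.54 in WT and 1.86 in OE, and Potri.005G214000.v3.0 had 1.54 and 1.93 with overlapping WT groups. Residual levels were nearly unrelated along this run, with r from 0.08 to 0.16.

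The run on chromosome 2, from 15078635 to 15128031, held 4 genes on the plus strand at low levels. Potri.002G190700.v3.0 stood at 0.241, 0.253 and 0.232 CPM in WT control and at 2.09, 2.19 and 3.95 CPM in WT Zn. In OE it stood at 0.552, 0.603 and 0.439 CPM on control and at 2.12, 2.17 and 4.12 CPM on Zn. Both Zn groups were alike, WT control sat little above the floor, and OE control stood between. Potri.002G190600.v3.0 stood at 1.97, 3.70 and 8.07 CPM in the libraries labelled WT control and at 7.02, 6.88 and 9.24 CPM in WT Zn. These WT groups overlapped, and its log2 ratio in WT was -0.06 when only WT control 3 stood for the control. Potri.002G190900.v3.0 had ratios of 2.45 and 1.93, and Potri.002G190800.v3.0, left out, 8.63 and 4.96.

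**Figure D3:**
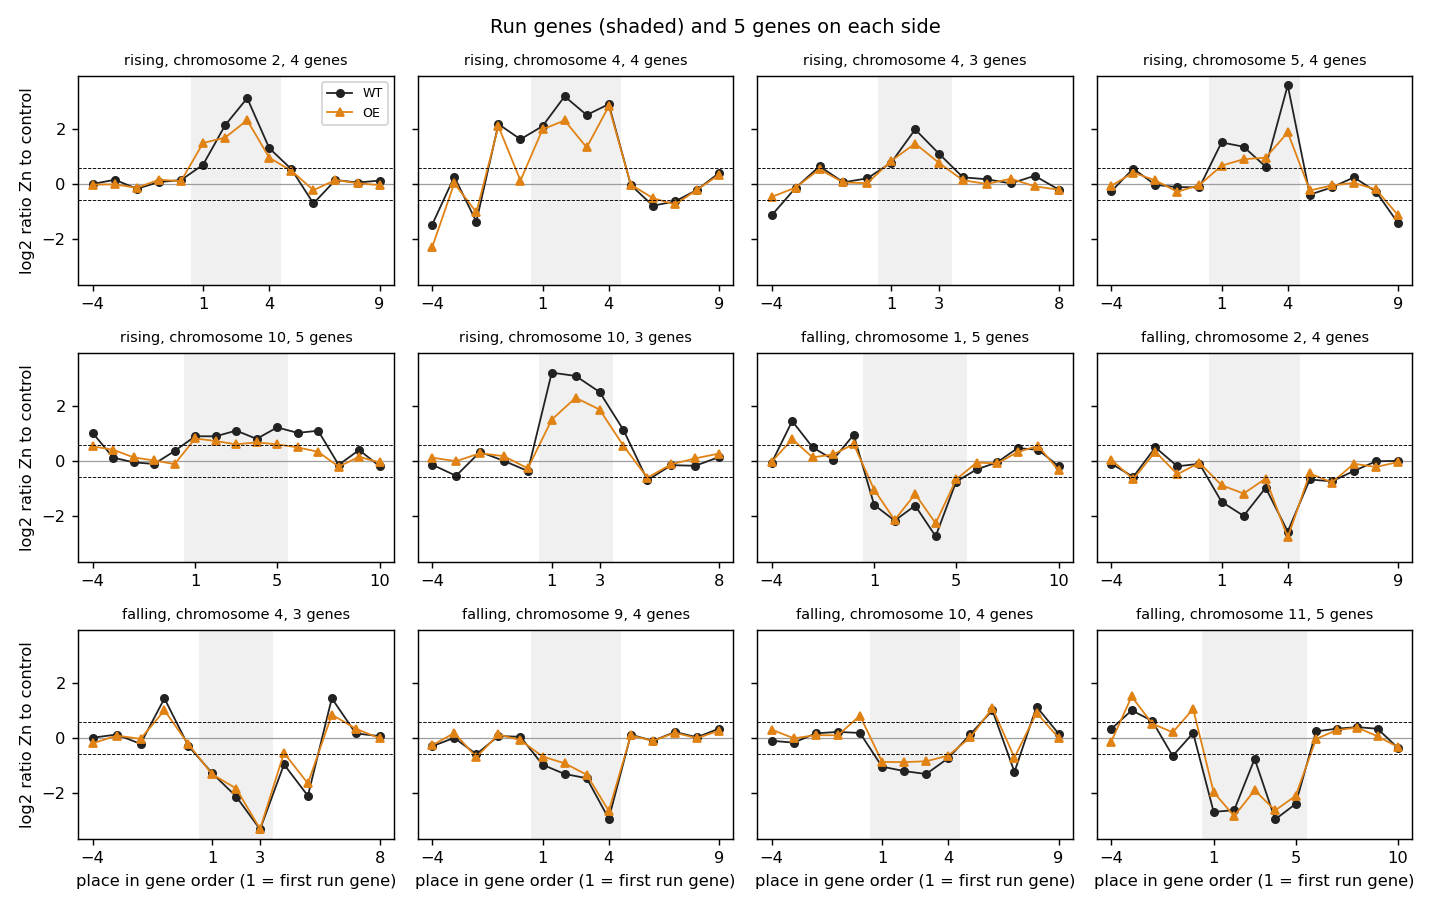
Each panel is 1 of the 12 named runs, with the place in the gene order on the x axis (1 is the first run gene, the run is shaded, 5 genes are drawn on each side) and the log2 ratio of Zn to control on the y axis. Black circles are WT, orange triangles are OE, and dashed lines mark the limit of 1.5 either way. The run genes leave the band between the dashed lines in both genotypes by construction, and most of the flanking genes lie within it.

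Among the falling runs the highest CPM level was on chromosome 9, from 9693692 to 9722548, where 4 genes lay on alternating strands and 3 were members. Potri.009G114600.v3.0 stood at 368, 335 and 585 CPM in WT control and at 151, 165 and 152 CPM in WT Zn. Its level in OE was 219, 404 and 318 CPM on control and 129, 140 and 105 CPM on Zn. The Zn libraries of both genotypes lay close together and below every control library. Its ratios were 0.364 in WT and 0.397 in OE. Its neighbour Potri.009G114700.v3.0, left out of the members, stood at 882, 906 and 1540 CPM in WT control and at 184, 174 and 79.1 CPM in WT Zn. In OE control that gene ranged from 261 to 1009 CPM and in OE Zn from 96.1 to 119 CPM. These neighbours varied together among replicates (r = 0.80). Potri.009G114300.v3.0 and Potri.009G114400.v3.0, at the other end of the run, had ratios of 0.511 and 0.405 in WT and of 0.628 and 0.530 in OE, without overlap of groups, and their residual r was 0.17.

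The falling run of chromosome 1, from 14938962 to 15053747, held 5 genes that all lie on the plus strand, 3 of them members. Potri.001G176100.v3.0 stood at 202, 189 and 229 CPM in WT control and at 86.5, 68.1 and 45.6 CPM in WT Zn. The OE libraries gave 187, 217 and 156 CPM on control and 89.0, 58.1 and 96.0 CPM on Zn. Control levels of the genotypes were alike and no Zn library reached them. The ratios were 0.325 in WT and 0.435 in OE. Potri.001G175800.v3.0 had ratios of 0.331 and 0.485, and Potri.001G176500.v3.0, at 2.57 CPM in WT control, 0.594 and 0.627. Between them, Potri.001G176000.v3.0 (0.223 in WT, 0.226 in OE) and Potri.001G176200.v3.0 (0.150 and 0.208) changed 4-fold or more. Within WT Zn, library 3 was the lowest at all 5 genes. Residual r fell along the run, from 0.77 and 0.71 to 0.42 and 0.16, and the last pair is also the one farthest apart, with 44.1 kb between the genes.

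Another 5 genes formed the falling run of chromosome 11, from 17680788 to 17969760, all on the minus strand. They were annotated with similar lengths, from 1509 to 1665 bases, and 14 genes under 1 CPM lay among them. Only 2 were members. Potri.011G159600.v3.0 stood at 5.34, 5.93 and 7.25 CPM in WT control and at 0.948, 0.426 and 0.250 CPM in WT Zn. In OE it stood at 2.87, 5.15 and 4.64 CPM on control and at 0.707, 0.857 and 0.567 CPM on Zn. All 6 Zn libraries were under 1 CPM and all 6 control libraries above 2 CPM. Its ratio of 0.156 in WT was the lowest of all members. Potri.011G160900.v3.0 stood at 0.578, 2.53 and 0.116 CPM in the libraries labelled WT control and at 0.664, 0.487 and 0.150 CPM in WT Zn. These groups overlapped, and its low ratio in WT rested on WT control 2. Without that library the log2 ratio in WT was 0.14, and with WT control 1 and 2 both left out it was 0.60. Its level in OE was 2.04, 3.78 and 2.76 CPM on control and 0.599, 0.0504 and 0.567 CPM on Zn, without overlap. The 3 genes left out, Potri.011G159900.v3.0, Potri.011G161300.v3.0 and Potri.011G161400.v3.0, had WT ratios of 0.163, 0.129 and 0.190 and OE ratios of 0.140, 0.162 and 0.234.

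The run on chromosome 10 from 10460805 to 10665580 held 4 falling genes, all members. Potri.010G080600.v3.0, with the highest level, stood at 178, 173 and 166 CPM in WT control and at 116, 114 and 80.9 CPM in WT Zn. The OE libraries gave 143, 144 and 155 CPM on control and 97.9, 90.4 and 95.3 CPM on Zn. The groups did not overlap, the ratios were 0.603 and 0.642, and WT Zn 3 stood below the other WT Zn libraries. Potri.010G079500.v3.0 is annotated over 181 kb and contains Potri.010G079900.v3.0 and Potri.010G080000.v3.0, so the reads of these 3 may not be told apart. It had ratios of 0.487 in WT and 0.548 in OE, and the genes inside it had 0.436 and 0.404 in WT. Residual r between neighbours ran from -0.30 to 0.33.

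On chromosome 2, from 4616069 to 4643577, 3 members and 1 gene changed over 4-fold followed each other. Potri.002G068100.v3.0 stood at 18.5, 23.2 and 37.4 CPM in WT control and at 4.98, 5.05 and 8.69 CPM in WT Zn. In OE it stood at 18.4, 20.2 and 11.7 CPM on control and at 10.4, 4.44 and 6.44 CPM on Zn. The groups did not overlap in either genotype, but in OE the gap between the nearest libraries was narrow. Potri.002G068200.v3.0 stood at 199, 212 and 275 CPM in WT control, at 118, 117 and 113 CPM in WT Zn, at 187, 229 and 176 CPM in OE control and at 130, 122 and 128 CPM in OE Zn. Potri.002G068000.v3.0 had ratios of 0.358 and 0.544, and Potri.002G068300.v3.0, left out, 0.169 and 0.146. The next gene, Potri.002G068400.v3.0, stopped short of the limit in OE with ratios of 0.627 and 0.731.

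The falling run of chromosome 4, from 1277767 to 1290483, was the shortest falling one, with 3 genes in 12.7 kb. Potri.004G019300.v3.0 stood at 179, 168 and 250 CPM in WT control and at 54.9, 48.7 and 32.2 CPM in WT Zn. Its level in OE was 131, 193 and 173 CPM on control and 51.0, 30.6 and 57.0 CPM on Zn. Both Zn groups were alike, well under all control libraries, with ratios of 0.229 and 0.281. Potri.004G019200.v3.0 overlaps it by 526 bases on the opposite strand and stood at 1.98 CPM ± 1.16 (SD, n = 3) in WT control and 0.520 CPM ± 0.159 in WT Zn, and reads of this pair may not be told apart. Potri.004G019400.v3.0, left out, had a ratio of 0.101 in both genotypes. Residual r was 0.66 for the overlapping pair and 0.65 for the other. Potri.004G019500.v3.0, the next gene, had ratios of 0.515 and 0.688 and missed the limit in OE, and the gene after it passed in both with log2 ratios of -2.10 and -1.65.

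The other 15 rising and 2 falling runs each had 3 genes. Their median ratios per run reached from 1.69 to 3.90 in WT and from 1.603 to 2.73 in OE for the rising runs. For the falling runs, on chromosomes 3 and 6, they were 0.581 and 0.586 in WT and 0.642 and 0.629 in OE. The tightest run of all, on chromosome 9 from 11981991 to 11988497, fitted 3 members on the minus strand into 6.51 kb. The members just inside the limit were Potri.019G003300.v3.0, with ratios of 1.77 in WT and 1.502 in OE, and Potri.006G230800.v3.0, with 0.586 and 0.666. Just outside it, next to a run, stood Potri.017G147200.v3.0 with 1.69 and 1.47.

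The genes beside the runs moved in either direction. The first ordered gene on either side of a rising run had a median log2 ratio of 0.07 in WT and -0.02 in OE (42 genes). For falling runs the medians were 0.05 and -0.01 (16 genes). Single first neighbours lay far from these medians, with WT log2 ratios of 1.62 before the 4-gene run of chromosome 4, 1.12 after the run of highest level on chromosome 10 and -0.96 after the falling run of chromosome 4. No first neighbour could pass the limit in the same direction in both genotypes, since it would then have been part of the run. Of the second neighbours, where the rule sets no bar, 4 of 42 passed in the direction of the run beside rising runs and 3 of 16 beside falling runs, where 5.3% and 4.79% of all ordered genes did. In the opposite direction 2 of 42 and 2 of 16 passed. At 3 to 10 genes from the run, 0 to 5 of 42 passed in its direction beside rising runs, with 5 at 6 and at 9 genes. Beside falling runs 0 to 2 of 16 did so.

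Members tended to be short genes of low level. The median of the mean level was 5.28 CPM for rising and 9.01 CPM for falling members, with 28 and 9 members under 5 CPM, against 17.5 CPM for all ordered genes. Genes past the limit outside runs were also low, with medians of 6.14 CPM when rising and 11.5 CPM when falling. The median gene length was 1308 bases for rising and 1231 bases for falling members, 1688 and 1670 bases for the genes outside runs, and 1893 bases for all ordered genes. Per length, on the authors' FPKM scale, the mean level ran from 0.563 to 357 with a median of 4.41 for rising members and from 0.879 to 298 with a median of 13.3 for falling members. In 2 members a library had 0 counts, and in none did a whole group.

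The median gap between genes of a run was longer than between ordered genes in general, and a larger share overlapped. Of the 70 adjacent pairs of run genes, 43 lay on the same strand (61.4%), 8 overlapped (11.4%) and 3 had a gap under 1000 bases (4.29%), with a median gap of 10.3 kb. Of all 23228 adjacent pairs of ordered genes, 50.2% lay on the same strand, 4.30% overlapped and 11.8% had such a short gap, with a median of 6.05 kb. Between the 46 adjacent pairs in which both genes were members, 24 shared the strand (52.2%) and 7 overlapped (15.2%). Of all members 23 overlapped some listed gene (27.7%), against 13.8% of all ordered genes. Runs spanned 6.51 to 520 kb with a median of 41.3 kb when rising, and 12.7 to 289 kb with a median of 28.4 kb when falling. Genes under 1 CPM were skipped in the ordering. Of the 29 runs, 12 had none inside, and 59 such genes lay inside the others. The genes of 9 runs all lay on 1 strand, 7 of these runs rising and 2 falling. These shares are descriptions, and no test was made on them.

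What is left after the group means are removed was not itself used by the rule, but it is not free of the selection. A single outlying library moves both the group mean behind a ratio and the deviations from it. In the run of highest level on chromosome 10, WT Zn 3 was the highest WT library at every gene. How far the selection raised the r of run genes was not tested. For each pair of genes, Pearson's r was taken over the 12 libraries of the deviations of log2(CPM + 0.5) from the group means, which leaves replicate variation alone. Adjacent run genes had a median r of 0.38 (70 pairs, quartiles 0.08 and 0.65), and 40.0% of the pairs exceeded 0.5. The median was 0.37 in rising runs (47 pairs) and 0.42 in falling runs (23 pairs). For pairs of adjacent members alone it was 0.36 (46 pairs). The 62 pairs whose genes did not overlap each other had a median of 0.38, the same as all pairs. The 8 overlapping pairs had 0.51. Some of the 62 pairs still shared an overlap with another gene. Potri.010G150700.v3.0 and Potri.010G150800.v3.0 both lie inside Potri.010G150500.v3.0 (r = 0.95). Potri.010G079900.v3.0 and Potri.010G080000.v3.0 both lie inside Potri.010G079500.v3.0 (r = -0.30). The median of the 62 pairs therefore does not exclude shared reads. All adjacent ordered genes had a median of 0.04, with 13.6% over 0.5. Run genes of the same direction on different chromosomes had a median of 0.12 (2545 pairs), 0.10 for rising and 0.23 for falling ones, with 20.2% over 0.5. The same 12 libraries stand behind every r, pairs of a run share genes, and no p is given.

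**Figure D4:**
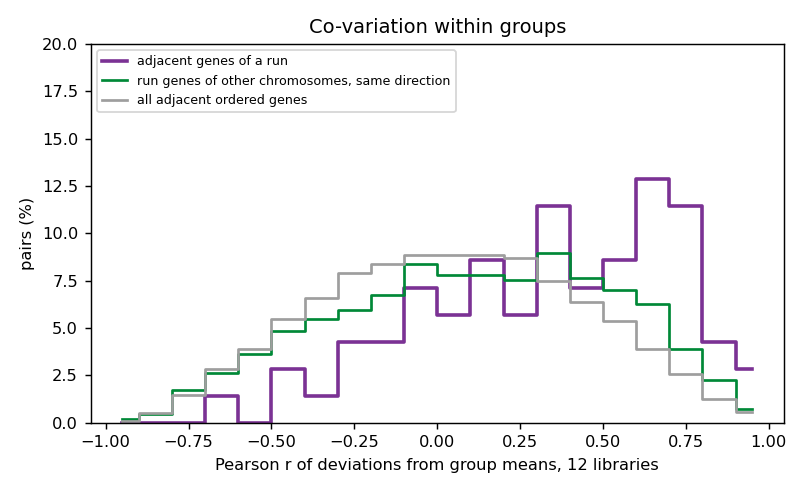
The x axis is Pearson's r between the deviations of paired genes from their group means over the 12 libraries, and the y axis the percent of pairs in each interval of r. Purple is the 70 adjacent pairs of run genes, green the 2545 pairs of run genes on different chromosomes with the same direction, grey all 23228 adjacent pairs. The purple curve lies farthest to the right, with 40.0% of its pairs over 0.5 against 20.2% and 13.6%.

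Since WT and OE share no library, genes chosen in one genotype can be read in the other. The filter of 1 CPM used all 12 libraries, so the libraries being read helped decide which genes were in the order. Among the ordered genes past the rising limit in WT alone, without regard to OE, 504 of 4457 immediate neighbours passed the rising limit in OE (11.3%), where 7.02% of all ordered genes did. At a distance of 2 genes the share was 8.46%, at 3 genes 7.48% and at 4 genes 7.17%. For genes past the falling limit in WT, 373 of 4002 immediate neighbours were past it in OE (9.32%), against 6.47% of all ordered genes, and the shares at 2 and 3 genes were 7.82% and 7.38%. Farther away the shares were not flat. Up to 20 genes apart they reached 8.07% at 13 and at 19 genes beside rising genes and 7.57% at 8 genes beside falling genes, close to the shares at 2 genes. Immediate neighbours in the opposite direction were not more frequent than among all genes. Next to rising genes 5.68% passed the falling limit, against 6.47%, and next to falling genes 6.15% passed the rising limit, against 7.02%. Farther away the opposite shares lay on either side of those of all genes. They reached 7.28% at 10 and at 11 genes beside rising genes, and 8.10% at 8 and at 9 genes beside falling genes. Among the distances of 1 to 20 genes, the same-direction share was highest for immediate neighbours, beside rising and beside falling genes. A gene with several neighbours past the limit enters more than once, so the neighbours are not independent and no test is given.

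**Figure D5:**
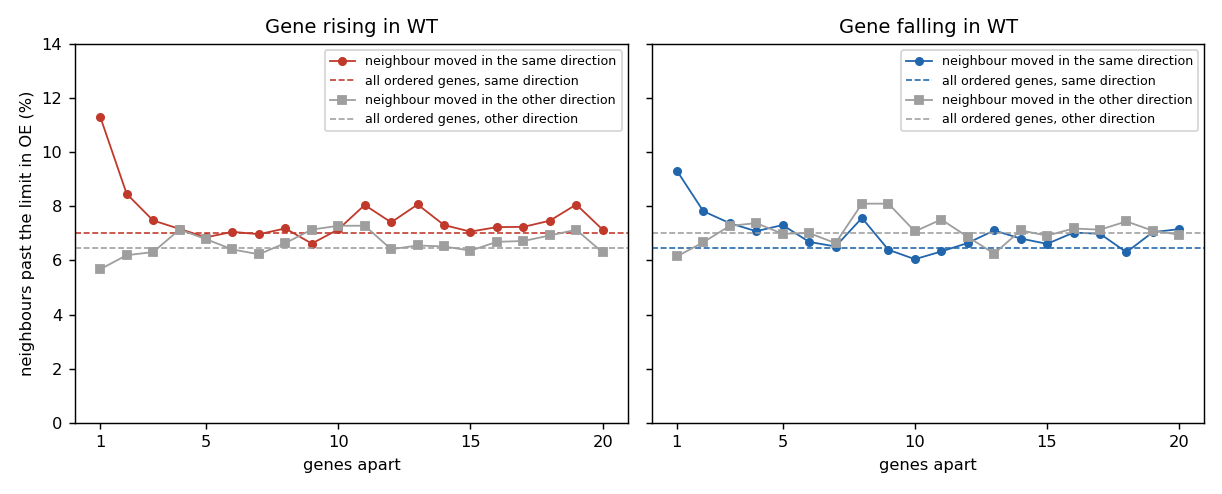
The x axis is the distance from a gene past the limit in WT, in ordered genes, and the y axis the percent of genes at that distance that passed the limit in OE. Red and blue circles are neighbours that moved in the same direction, grey squares those that moved in the other, and dashed lines the shares of all ordered genes. At 1 gene apart the same-direction share is 11.3% for rising genes, above the 7.02% of all ordered genes, and 9.32% for falling genes, above 6.47%.

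The share of immediate neighbours past the limit differed by how the genes lay to each other. Next to genes rising in WT, 20.9% of the 215 overlapping neighbours passed the rising limit in OE. Among neighbours that did not overlap, the share was 11.3% on the same strand and 10.3% on opposite strands. By gap it was 7.03% under 1000 bases, 9.91% from 1000 to 10000 bases and 12.96% beyond 10000 bases. The share under 1000 bases was close to the 7.02% of all ordered genes, whatever their gap. Next to falling genes the shares were 13.97% for overlapping neighbours, 10.2% on the same strand, 7.98% on opposite strands and 10.4% beyond 10000 bases. Overlapping neighbours thus had the highest share in both directions. Among those that did not overlap, the share was higher beyond 10000 bases than under 1000 bases, where it was 8.36% next to falling genes. The share of all ordered genes past the limit was not taken within each class. Whether the classes differ only beside genes past the limit in WT was therefore not tested.

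Runs were then formed from the WT ratios alone and read in OE, along the gene order that all 12 libraries had filtered. The 92 runs so formed held 313 genes, of which 187 passed the limit in OE in the same direction (59.7%), against 2157 of 3919 genes past the WT limit outside runs (55.0%). The same sign was seen in 96.8% and 95.9%. The genes in runs had a median absolute log2 ratio of 1.02 in WT and those outside 0.88, so the genes in runs had been chosen at larger changes. In the reverse reading 42 runs formed from OE held 141 genes, of which 125 passed in WT (88.7%), against 2219 of 2997 genes outside runs (74.0%). Their median absolute log2 ratio in WT was 1.26 in runs and 0.91 outside, after medians of 0.98 and 0.85 in OE. When only WT control 3 stood for the WT control, the shares from WT to OE were 39.9% in runs and 39.6% outside, and those from OE to WT 85.6% and 69.1%. From WT to OE the order turned without WT Zn 3, with 48.4% in runs and 55.3% outside, and without both WT control 3 and WT Zn 3, with 56.7% and 57.5%. From OE to WT the share was larger in runs in all 24 other settings tried.

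The contrast of OE with WT within a medium was not part of the rule, but it uses the same libraries as the ratios that chose the members. It asks whether the transgene set the members at another level. All 83 members were tested. On control medium the contrast includes WT control 1 and 2, which went partly against their label, and it was not run with both left out. Their spread also enters the fit that both media share. No member had an adjusted p under 0.05 on control medium or on Zn in the edgeR quasi-likelihood test with Benjamini-Hochberg adjustment. That test called 0% of 25871 genes in either medium, so it also missed the gene taken to be overexpressed. On Zn that gene stood at 267, 238 and 266 CPM in OE and at 33.2, 32.5 and 33.0 CPM in WT. The lack of calls by edgeR therefore cannot show that the members were at the same level in both genotypes. The smallest adjusted p among members was 0.2003 on control and 0.570 on Zn by edgeR. At an unadjusted p under 0.05 stood 7 of 83 members on control (8.43%, against 8.87% of all tested genes) and 6 on Zn (7.23%, against 7.13%). Those shares were near the background. DESeq2 called 1 member on control, Potri.005G213500.v3.0, where it called 0.348% of all genes, and none on Zn, where it called 0.247%. Limma-voom called none in either medium, among members or other genes (0%).

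The signs of the genotype differences were uneven. On control medium 43 of 60 rising members stood higher in OE, with a median log2 difference of 0.22, and 18 of 23 falling members stood lower, with a median of -0.19. On Zn 40 of 60 rising members stood lower in OE, with a median of -0.13, and 14 of 23 falling members stood higher, with a median of 0.11. The median of all tested genes was -0.003 on control and -0.002 on Zn. These signs are tied to the smaller OE ratios of the members, since both are made from the same group means, and they are no separate result.

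In Potri.005G213500.v3.0 OE control stood 0.97 higher than WT control on the log2 scale (SE 0.17, edgeR quasi-likelihood unadjusted p = 9.01e-05, adjusted p = 0.2003). No WT control library reached any OE control library. Potri.004G235600.v3.0 differed by 0.53 in the same direction (SE 0.16, edgeR adjusted p = 0.439). Potri.009G114400.v3.0 was lower in OE control, with a log2 difference of -0.46 (SE 0.16, edgeR adjusted p = 0.484). On Zn Potri.006G042300.v3.0, of a rising run on chromosome 6, stood at 1.33, 3.22 and 2.95 CPM in WT and at 0.762, 0.807 and 1.24 CPM in OE. The groups did not overlap, although OE Zn 3 stood close to WT Zn 1, and the log2 difference was -1.40 (SE 0.38, edgeR adjusted p = 0.570). Potri.006G042400.v3.0 lies inside this gene, and reads of the pair may not be told apart. Potri.008G027500.v3.0, of a rising run on chromosome 8, stood at 2.89, 3.77 and 16.7 CPM in WT Zn and at 2.99, 2.22 and 0.258 CPM in OE Zn. WT Zn 3 and OE Zn 3 set its difference of -2.10 (SE 0.79, edgeR adjusted p = 0.649), and the other libraries overlapped. This gene overlaps Potri.008G027600.v3.0 by 4325 bases on the same strand, and reads of the pair may not be told apart. Potri.010G150500.v3.0, described above, had a difference of -1.14 on Zn (SE 0.49, edgeR adjusted p = 0.685), with OE Zn 2 inside the range of WT Zn. In bulk roots, fewer cells of a type and less RNA per cell cannot be told apart in any of these values.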

How the data were processed

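Root RNA was sequenced from TruSeq libraries, per the labels' protocols, and the submitters' processing notes name TopHat2 2.1.1 and HTSeq 0.6.0. For the strand setting, the build and multiply mapped reads, nothing is given in the sources used here. The IDs of *P. trichocarpa* and the loci, strands and lengths are as the deposited files give them. The deposited count column holds whole numbers that do not match the authors' normalized column for every gene, so it was treated as an estimated count made by the authors and used as deposited. The authors' normalized signal values gave the implied counts used as an alternative, and the authors' FPKM served only for levels per length.

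Groups came from the titles, and replicate numbers follow the order of deposit and pair nothing. CPM was computed with TMM factors from edgeR 4.0.16 in R 4.3.3. Runs were found as stated in the report, with genes under 1 CPM skipped. The contrasts of OE with WT were fitted in edgeR for 25871 genes kept by filterByExpr, with 4 group means over 12 libraries, 8 residual degrees of freedom, the robust quasi-likelihood test and Benjamini-Hochberg adjustment over all of them at 0.05. The biological coefficient of variation was 14.24%. DESeq2 1.42.0 and limma-voom (limma 3.58.1) were alternatives, beside other scalings, filters, pseudocounts, ratio limits, run definitions and the omission of libraries. The scripts were tested on simulated data. Intervals of counting error were not needed, and the floor of 3 counts covers counting error only.

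The members and lists were chosen with earlier results of these data known. Genes were named by rule: all genes of the 4 longest rising and 4 longest falling runs, of the 2 further runs per direction with the highest summed CPM, the 3 members with the smallest unadjusted edgeR p for OE against WT per medium, and the genes nearest the limit. The tightest run was singled out after its values were seen. Protein likeness, promoter words and cell type markers were not analysed here, as no sequence or annotation was used.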

Additional observations from a re-analysis of the deposited data

How the results depend on the processing

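Which genes formed runs depended on the settings. Median-ratio scaling and the implied counts gave 29 runs with the same 83 members, and upper-quartile scaling gave 29 runs with 82 members, 79 of them shared. A filter of 3 CPM gave 18 runs with 46 members (23 rising), of which 36 were shared, and no filter gave 52 members (36 rising), of which 41 were shared. A pseudocount of 2 gave 13 runs with 38 members (27 rising, 11 falling), a limit of 2 gave 5 runs with 11 members (7 and 4), and a lower limit than 1.5 gave 138 runs with 425 members (251 and 174). Where genes under 1 CPM ended a run, 14 runs with 35 members were left (25 and 10). Without overlapping genes there were 20 runs with 59 members (38 rising and 21 falling), of which 53 were shared. Leaving out each library in turn gave 20 to 37 runs and 57 to 108 members (43 to 85 rising, 14 to 30 falling), the fewest without OE control 2, with 64 without WT Zn 3, 66 without OE Zn 2 and the most without OE control 1. The cause of these changes was not tested, apart from the limits, which admit more or fewer genes by construction.

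For genes chosen in WT and read in OE, the share outside runs was 39.6% without WT control 1 and 2 (39.9% in runs), 57.5% without WT control 3 and WT Zn 3 (56.7% in runs), 52.9% with no filter, 51.4% with a pseudocount of 2, 49.9% at a limit of 2 and 58.2% at the lower limit. For genes chosen in OE and read in WT it was 69.1% outside runs without WT control 1 and 2, 94.4% in and 76.5% outside runs at 3 CPM, 77.8% and 69.4% with no filter, and 81.6% in runs at the lower limit. Without single libraries the shares ran from 48.4% to 67.4% in and 49.6% to 61.4% outside runs from WT to OE, and from 83.5% to 89.4% and 69.7% to 75.9% from OE to WT. From WT to OE the share in runs was above that outside in 22 of 24 settings. Without WT Zn 3 it was below, with 48.4% against 55.3%. The median r of neighbours ran from 0.26 to 0.48.

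For OE against WT, DESeq2 called 1 member on control and limma-voom gave 11 with an unadjusted p under 0.05 there. Without single libraries 0 members were called by edgeR in either medium, and 3 to 15 had an unadjusted p under 0.05 in each. The WT log2 ratio of Potri.011G160900.v3.0 ran from -1.15 to 0.14 without single libraries, the latter without WT control 2, and was 0.60 without WT control 1 and 2, and that of Potri.002G190600.v3.0 was -0.064 without WT control 1 and 2. No paired analysis was possible because the replicate numbers come from the order of deposit and the runs come from no test.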
